A study of Mus musculus with 6 samples.

Results

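The 10 genes described here carry, store or sense copper and zinc: the metallothioneins Mt1 and Mt2, the metal-sensing transcription factor Mtf1, the copper transporters Slc31a1 and Slc31a2, the copper pumps Atp7a and Atp7b, the copper chaperones Atox1 and Ccs, and the zinc exporter Slc30a1. They were chosen by gene symbol because copper carriers also move platinum, and all 10 are among the 56691 genes of the count files. Kidney RNA was sequenced from 3 male C57BL/6 mice given 4 intraperitoneal injections of cisplatin, a platinum drug, at 8 mg/kg, and from 3 age-matched male C57BL/6 mice given saline. Injections were weekly and began at 9 weeks of age, kidneys were taken at week 7, and each library came from 1 mouse. The model is a whole injured kidney several weeks after the last dose, not a single cell type, so a lower transcript level can reflect fewer cells of a type or less RNA per cell, and the counts cannot tell these apart.

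Metallothioneins are small cysteine-rich proteins that bind zinc and copper and also bind cadmium and platinum, and the proximal tubule is their main site in the kidney. MTF-1, the product of Mtf1, senses free zinc and binds metal response elements in the promoters of metallothionein genes and of Slc30a1, while glucocorticoids and interleukin-6 are further inducers of metallothioneins. Copper enters cells through CTR1, the product of Slc31a1, is handed by ATOX1 to the ATPases ATP7A and ATP7B and by CCS to superoxide dismutase 1, and leaves through the ATPases. CTR1 and both ATPases have been linked to cisplatin uptake or efflux in cultured cells.

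The promoters of Mt1, Mt2 and Slc30a1 are shown because these are the members with textbook MTF-1 control. A further reason was that Slc30a1 did not rise with Mt1 and Mt2, although its own change, given below, was not stable. Each sequence runs 5′ to 3′ on the strand of the gene, which is the plus strand for all 3, from 250 bases before to 50 bases after the RefSeq start site, taken from a RefSeq table on GRCm38.p6 and located by exact match in GRCm39. Mt1 lies at chr8:94905467-94905766, Mt2 at chr8:94898996-94899295 and Slc30a1 at chr1:191638643-191638942. Capitals mark matches to the metal response element core, TGCACNC or TGCGCNC, on either strand.
Mt1: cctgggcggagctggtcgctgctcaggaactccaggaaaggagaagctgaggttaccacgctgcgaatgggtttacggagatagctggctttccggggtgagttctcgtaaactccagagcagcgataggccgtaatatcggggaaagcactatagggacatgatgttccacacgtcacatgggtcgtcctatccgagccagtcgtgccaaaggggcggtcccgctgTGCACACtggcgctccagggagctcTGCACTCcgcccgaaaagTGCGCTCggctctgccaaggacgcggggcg
Mt2: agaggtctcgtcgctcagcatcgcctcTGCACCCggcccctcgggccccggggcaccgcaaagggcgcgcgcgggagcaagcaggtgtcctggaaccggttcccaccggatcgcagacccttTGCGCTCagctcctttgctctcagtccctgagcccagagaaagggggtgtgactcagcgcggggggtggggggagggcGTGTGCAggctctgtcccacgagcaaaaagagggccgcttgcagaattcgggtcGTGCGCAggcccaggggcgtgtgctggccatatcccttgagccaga
Slc30a1: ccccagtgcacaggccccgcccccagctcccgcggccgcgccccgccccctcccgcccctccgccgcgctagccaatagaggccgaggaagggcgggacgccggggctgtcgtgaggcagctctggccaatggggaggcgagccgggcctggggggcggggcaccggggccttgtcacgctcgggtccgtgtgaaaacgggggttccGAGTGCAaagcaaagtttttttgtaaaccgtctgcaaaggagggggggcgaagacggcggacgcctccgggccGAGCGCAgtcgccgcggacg

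The Mt1 window held 3 matches, the Mt2 window 4 and the Slc30a1 window 2. Counting from the RefSeq start as base 1, the Mt1 matches began at -23, 3 and 21, all on the strand of the gene. The Mt2 matches began at -223 and -128 on the strand of the gene and at -50 and 5 on the opposite strand, and those of Slc30a1 at -43 and 31 on the opposite strand. Among the other members, the Atp7a window held 2 matches, those of Slc31a2 and Atp7b held 1 each, and those of Mtf1, Slc31a1 and Atox1 held 0. Ccs was not matched in the table, so 9 of 10 members had a window. Of 32851 RefSeq windows of the same length, 25.7% held at least 1 match, 7.11% at least 2, 1.97% at least 3 and 0.517% at least 4. Start sites differ between annotations: the GENCODE canonical start lay 7 bases upstream of the RefSeq start for Mt1, 114 bases upstream for Mt2 and 50 bases upstream for Slc30a1. The counts and positions hold for these windows and the RefSeq starts only. Sequence outside the windows was not searched, and the start used in these kidneys was not examined. A match to these letters is a description of the sequence, not of binding.

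**Figure D1:**
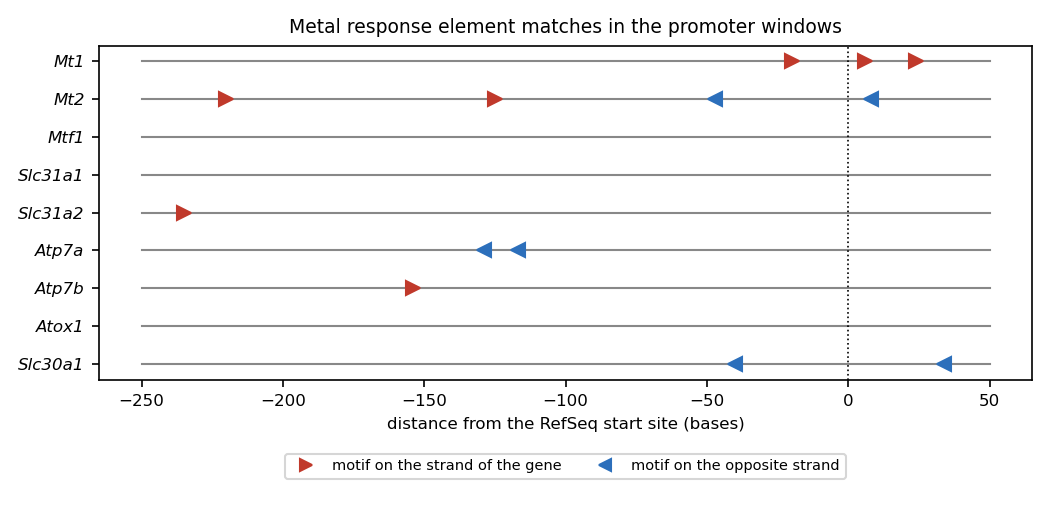
Positions of metal response element matches in the promoter windows of the 9 members with a RefSeq window, as distance in bases from the RefSeq start site (dotted line). Red triangles are matches on the strand of the gene and blue triangles matches on the opposite strand, with 3 in Mt1, 4 in Mt2 and 2 in Slc30a1.

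The libraries held 21891855 to 25356523 counted read pairs in cisplatin kidneys and 24111688 to 26627554 in control kidneys. Mitochondrial rRNA made up 41.1% to 48.6% of the counted pairs in cisplatin libraries and 45.5% to 48.0% in control libraries. Pairs that fell in no annotated exon on the counted strand made up 6.09% to 9.32% in cisplatin libraries, highest in cisplatin 1, and 4.63% to 4.86% in control libraries. Levels are given as CPM, which is a count divided by the library size in units of 1000000 counts, scaled by TMM factors (trimmed mean of M values, a correction for library composition), which were 1.05 to 1.26 in cisplatin libraries and 0.844 to 0.894 in control libraries. Genes were tested with the edgeR quasi-likelihood test, adjusted over 15662 genes, at an adjusted p of 0.05, and "rose" and "fell" are used for genes past that threshold. The p-values measure the spread between 3 mice per group. Cisplatin replicates differed from each other more than control replicates, with a chi-square per gene between pairs of libraries of 13.6 to 41.0 against 4.77 to 6.95. This measure used raw counts and library totals without TMM factors, so differences in library composition enter it.

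All 10 members were tested. Of these, 3 rose and 3 fell, where 24.5% of all tested genes rose and 22.8% fell, and 47.4% changed in either direction. The libraries of the groups did not overlap for 6 of 10 members, against 57.8% of all tested genes. The share of members that changed was therefore close to that of all genes, and the median log2 fold change was -0.07 over the members and 0.05 over all tested genes. Mt2, Mt1 and Atp7a rose, and Slc31a1, Ccs and Slc30a1 fell. Mtf1, Slc31a2, Atp7b and Atox1 did not pass the test. In the same libraries 11 of 12 proximal tubule markers fell and 5 of 6 macrophage markers rose, and the part of these cell types in the changes of the members was not tested.

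**Figure D2:**
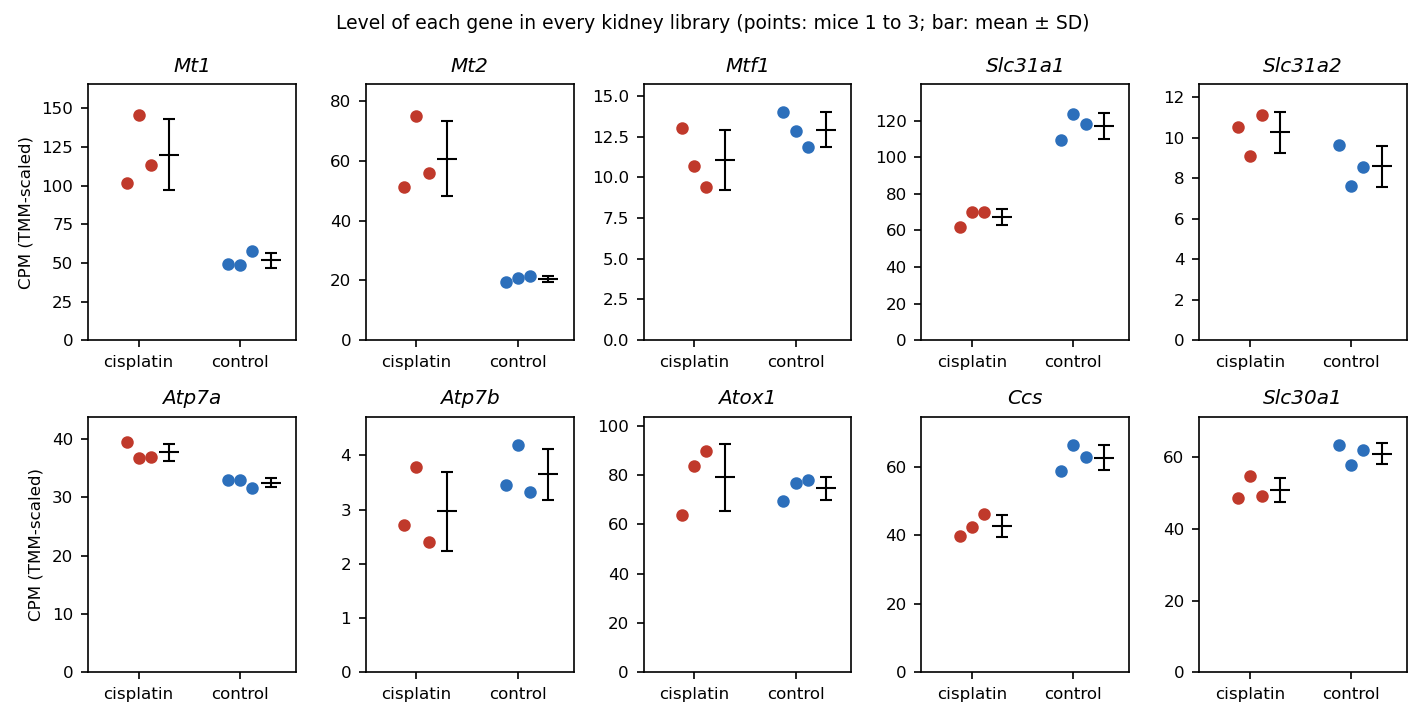
Level of each of the 10 genes in every library, in TMM-scaled CPM on a linear axis that starts at 0, with cisplatin mice in red and control mice in blue. Points are mice 1 to 3, and the bar is the mean with SD (n = 3). Mt1 and Mt2 lie higher in all cisplatin libraries, and Slc31a1 and Ccs lie lower in all of them.

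Mt1 (ENSMUSG00000031765) and Mt2 (ENSMUSG00000031762) are neighbours on the plus strand of chromosome 8 in GRCm39, at chr8:94905710-94906955 and chr8:94898819-94900207, with 5503 bases between them. Mt1 had 2951, 4340 and 2592 raw counts in cisplatin kidneys, against 1167, 997 and 1193 in control kidneys. On the CPM scale Mt1 reached 102, 145 and 113 in cisplatin libraries and 49.1, 48.6 and 57.4 in control libraries. The groups did not overlap, and cisplatin 2 was the highest library. Mt1 rose 2.32-fold, with a log2 fold change of 1.22 (SE 0.134, 95% interval 0.92 to 1.51, edgeR adjusted p = 3.8e-05).

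Mt2, the closest paralog of Mt1, moved further. Its levels were 51.4, 75.1 and 56.0 CPM in cisplatin kidneys and 19.5, 20.7 and 21.5 CPM in control kidneys, again with no overlap and with cisplatin 2 as the highest library. The log2 fold change was 1.57 (SE 0.136, 95% interval 1.26 to 1.87, edgeR adjusted p = 7.7e-06), or 2.96-fold. Mt1 and Mt2 rose under all 17 alternatives, at log2 fold changes of 1.06 to 1.64 for Mt1 and 1.39 to 1.99 for Mt2. The other mouse metallothioneins were at the limit of detection. Mt3, the form of brain, had 8, 4 and 2 counts in cisplatin libraries and 7, 5 and 7 in control libraries and was not tested. Mt4, the form of squamous epithelium, had 0 counts in all 6 libraries, which allows up to 3 counts per library, or 0.101 to 0.146 CPM.

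The ratio of Mt1 to Mt2 counts within a library does not depend on scaling between libraries. It was 1.98, 1.94 and 2.02 in cisplatin kidneys and 2.52, 2.34 and 2.67 in control kidneys, so that Mt2 made up a larger part of the pair in each cisplatin library. The difference in the log2 ratio, cisplatin minus control, was -0.34. In a two-sided exact permutation test over mice p was 0.1, the smallest value that 3 against 3 libraries can give. The reading of the strand matters here, because the lncRNA gene Gm45774 lies on the opposite strand of Mt2. With the strand of the transcript counted, Gm45774 had 0 to 2 counts per library. With the strand ignored, only 5.36% to 8.39% of the Mt2 counts remained in cisplatin libraries and 6.93% to 8.64% in control libraries, and the log2 ratio difference was -0.19, on 80, 188 and 100 Mt2 counts in cisplatin kidneys against 40, 34 and 31 in control kidneys.

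Mtf1 (chr4:124695897-124743593, plus strand) encodes the zinc sensor that drives metallothionein transcription. Its levels were 13.1, 10.7 and 9.42 CPM in cisplatin kidneys and 14.0, 12.9 and 11.9 CPM in control kidneys. The groups overlapped, since cisplatin 1 lay above control 2 and control 3. The log2 fold change was -0.22 (SE 0.132, 95% interval -0.51 to 0.07, edgeR adjusted p = 0.191). Without cisplatin 1 it was -0.36 with an adjusted p of 0.0298 by edgeR, so that 1 library decided whether Mtf1 passed the test.

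Slc30a1 (chr1:191638808-191645361, plus strand), also a target of MTF-1, exports zinc across the plasma membrane. Its levels were 48.6, 54.6 and 49.1 CPM in cisplatin kidneys and 63.4, 57.7 and 61.9 CPM in control kidneys. No library overlapped, and cisplatin 2 and control 2 lay nearest to each other. Slc30a1 fell, with a log2 fold change of -0.26 (SE 0.0856, 95% interval -0.45 to -0.08, edgeR adjusted p = 0.0260). This call was not stable: the adjusted p by edgeR was 0.111 without control 1 and 0.0981 without control 3. When libraries were scaled by their totals alone the log2 fold change was 0.16, without passing the test (edgeR adjusted p = 0.204). Slc30a1 thus did not rise with Mt1 and Mt2 under TMM scaling. A list of 3 further genes with reported MTF-1 control was chosen with earlier results of these data known. It was not split by the direction of that control, and 1 of its genes rose. That gene was Selenow, a small selenoprotein, at 28.7 ± 1.59 CPM in cisplatin kidneys and 17.9 ± 0.338 CPM in control kidneys (SD, n = 3 each), with a log2 fold change of 0.68 (SE 0.0866, edgeR adjusted p = 1.1e-04). Gclc, which encodes the catalytic subunit of glutamate-cysteine ligase, had a log2 fold change of -0.12 (adjusted p = 0.430, edgeR), and the zinc importer Slc39a10 one of -0.15 (adjusted p = 0.246, edgeR). With library totals Gclc stood at 0.31 without passing the test and Slc39a10 rose, at 0.27 (edgeR adjusted p = 0.0234). Both values lay below the median of all tested genes under that scaling, 0.48. The part of MTF-1 in these levels was not tested.

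Slc31a1 (ENSMUSG00000066150, chr4:62278085-62320861, plus strand) encodes the high-affinity copper importer CTR1. It had 62.1, 69.8 and 69.9 CPM in cisplatin kidneys and 109, 123 and 118 CPM in control kidneys. The highest cisplatin library lay far below the lowest control library. Slc31a1 fell, with a log2 fold change of -0.80 (SE 0.0902, 95% interval -1.0 to -0.60, edgeR adjusted p = 4.6e-05), so that cisplatin kidneys held 0.576 times the control level. It fell under all 17 alternatives, at log2 fold changes of -0.86 to -0.37.

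Slc31a2 (chr4:62180799-62220050, plus strand) encodes CTR2, a relative of CTR1 found mainly on endosomes and lysosomes, and lies beside Slc31a1. Its levels were 10.5, 9.11 and 11.1 CPM in cisplatin kidneys and 9.63, 7.60 and 8.56 CPM in control kidneys, with cisplatin 2 below control 1. The log2 fold change was 0.25 (SE 0.127, 95% interval -0.03 to 0.53, edgeR adjusted p = 0.129). The ratio of Slc31a1 to Slc31a2 counts was 5.89, 7.66 and 6.29 in cisplatin kidneys and 11.4, 16.2 and 13.8 in control kidneys. The ratio was therefore lower in every cisplatin library than in any control library, where Slc31a1 fell and Slc31a2 did not pass the test. The log2 difference, cisplatin minus control, was -1.05, with a two-sided exact permutation p of 0.1. Fkbp15 overlaps both genes on the opposite strand, and the counts of the transcript strand keep it apart.

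Atp7a (chrX:105070845-105171766, plus strand) encodes the copper pump that is lost in Menkes disease in humans and that most tissues use to load and export copper. It had 39.4, 36.7 and 36.9 CPM in cisplatin kidneys and 33.0, 32.9 and 31.5 CPM in control kidneys, without overlap. Atp7a rose by a small amount, with a log2 fold change of 0.21 (SE 0.0798, 95% interval 0.04 to 0.39, edgeR adjusted p = 0.0469). The call held in 6 of 17 alternatives and was lost on leaving out any one of the 6 libraries, with adjusted p-values by edgeR of 0.0524 to 0.194.

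Atp7b (chr8:22482801-22550352, minus strand) encodes the pump that is lost in Wilson disease in humans and that works mainly in the liver. It was the lowest member, with 79, 113 and 55 raw counts in cisplatin kidneys and 82, 86 and 69 in control kidneys. The groups overlapped at 2.72, 3.79 and 2.40 CPM in cisplatin libraries against 3.45, 4.19 and 3.32 CPM in control libraries. The log2 fold change was -0.29 (SE 0.196, 95% interval -0.72 to 0.15, edgeR adjusted p = 0.252). Without cisplatin 2 it was -0.50 with an adjusted p of 0.0609 by edgeR. The ratio of Atp7a to Atp7b counts was 14.5, 9.68 and 15.4 in cisplatin kidneys and 9.56, 7.86 and 9.51 in control kidneys, a log2 difference of 0.53 (two-sided exact permutation p = 0.1).

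Atox1 (chr11:55336780-55352132, minus strand) encodes the chaperone that hands copper to both pumps. Its levels were 63.7, 83.6 and 89.9 CPM in cisplatin kidneys and 69.3, 76.7 and 78.0 CPM in control kidneys. The control range lay inside the cisplatin range, and the log2 fold change was 0.08 (SE 0.123, 95% interval -0.19 to 0.35, edgeR adjusted p = 0.609). Ccs (chr19:4874370-4889374, minus strand) encodes the chaperone that hands copper to superoxide dismutase 1. It had 39.8, 42.5 and 46.2 CPM in cisplatin kidneys and 58.8, 66.3 and 62.9 CPM in control kidneys, with no overlap. Ccs fell, with a log2 fold change of -0.55 (SE 0.0897, 95% interval -0.75 to -0.35, edgeR adjusted p = 5.4e-04), a call that was lost with library totals (log2 fold change -0.13, adjusted p = 0.177). The ratio of Atox1 to Ccs counts was 1.60, 1.97 and 1.95 in cisplatin kidneys and 1.18, 1.16 and 1.24 in control kidneys. The log2 difference was 0.62 (two-sided exact permutation p = 0.1). Over the 4 ratios compared, the Benjamini-Hochberg adjusted p was 0.1 for each, and the ratios of the groups did not overlap for any of the 4. An exact permutation p of 0.1 is the smallest possible here and is reached whenever the groups do not overlap. The p-values therefore add nothing to the lack of overlap. Taken singly, 57.8% of all tested genes did not overlap between the groups. How often ratios of other gene pairs do not overlap was not tested.

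**Figure D3:**
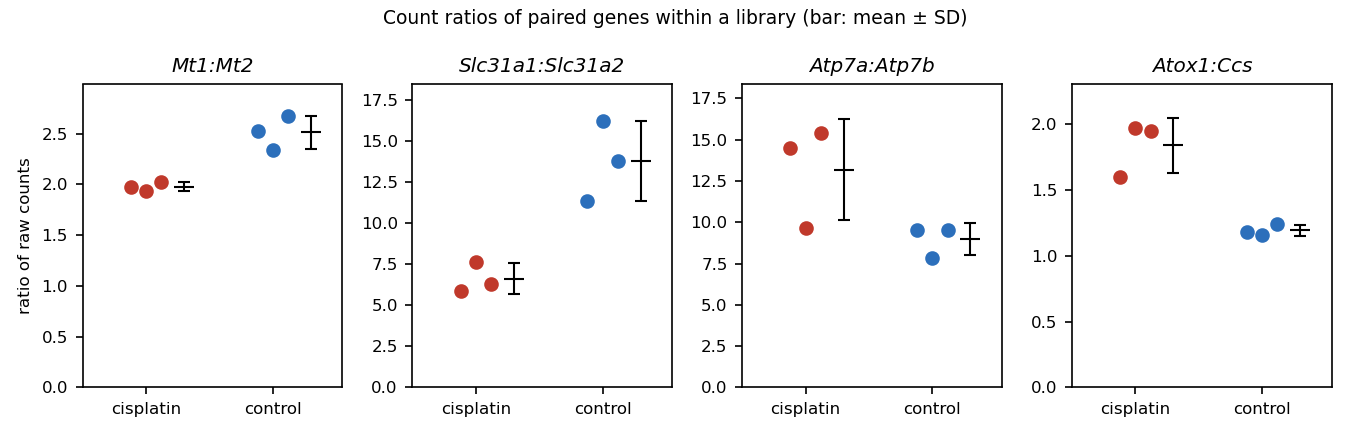
Ratios of raw counts of paired genes within each library, on linear axes that start at 0, with cisplatin mice in red and control mice in blue. Points are mice 1 to 3 and the bar is the mean with SD (n = 3). The groups do not overlap in any panel, and the Slc31a1 to Slc31a2 ratio lies between 5.89 and 7.66 in cisplatin kidneys, against 11.4 to 16.2 in control kidneys.

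The calls of the smaller changes rest on how libraries are scaled. TMM, size factors of DESeq2 and upper-quartile factors gave a median log2 fold change over all tested genes of 0.05, 0.02 and 0.14, and library totals gave one of 0.48. With upper-quartile factors 4 members rose and 2 fell, as Slc31a2 rose (log2 fold change 0.34, edgeR adjusted p = 0.0490) and Slc30a1 was lost. With library totals 5 members rose and 1 fell, and Slc31a1 was the member that still fell, at -0.37. The directions of Mt1, Mt2, Slc31a1 and Ccs did not change under any of these scalings. Slc31a2, Atp7a and Atox1 also kept their direction, without being called under every scaling. Mtf1, Atp7b and Slc30a1 changed sign with library totals.

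**Figure D4:**
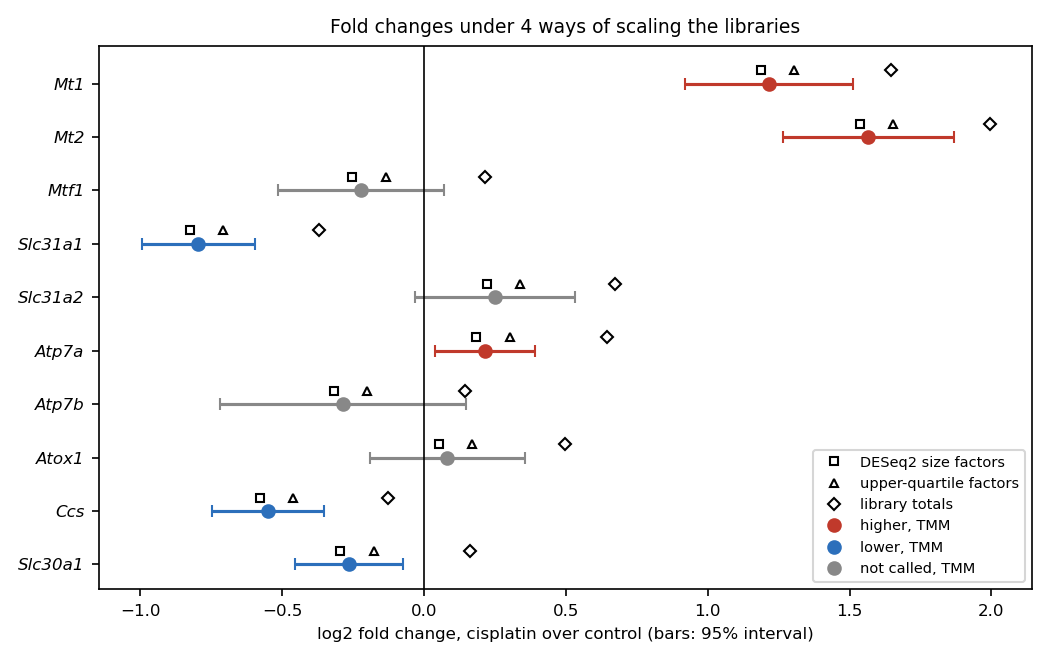
Log2 fold change of each gene, cisplatin over control, under TMM scaling (circles, with bars for the 95% interval) and under 3 other scalings (open symbols). Red, blue and grey mark genes that rose, fell or did not pass the edgeR test. Library totals shift every gene to the right, by about the shift of the median of all genes, 0.48 against 0.05, and place Slc30a1 at 0.16.

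Per kilobase of exon, Mt1 was the most abundant member in both groups, at 96.3 ± 18.2 CPM per kb in cisplatin kidneys and 41.5 ± 3.97 in control kidneys (SD, n = 3 each). Mt2 followed at 64.0 ± 13.2 in cisplatin kidneys and 21.7 ± 1.08 in control kidneys. In cisplatin kidneys the order went on with Atox1 (15.4), Ccs (14.6), Slc30a1 (8.97), Slc31a1 (8.53), Slc31a2 (4.50), Atp7a (3.13), Mtf1 (1.22) and Atp7b (0.454), in CPM per kb. Atox1 and Ccs overlapped between libraries, as did Slc30a1 and Slc31a1. In control kidneys it went on with Ccs (21.4), Slc31a1 (14.8), Atox1 (14.6), Slc30a1 (10.8), Slc31a2 (3.77), Atp7a (2.70), Mtf1 (1.42) and Atp7b (0.559), in CPM per kb, where Mt2 overlapped Ccs and Slc31a1 overlapped Atox1. Slc31a1 thus ranked 6 in cisplatin kidneys and 4 in control kidneys. The order depends on the length used. With the canonical transcript in place of all exons (608 bases in place of 5126 for Atox1), the order in cisplatin kidneys began with Mt1, Atox1, Mt2, Ccs and Slc31a1, and that in control kidneys with Atox1, Mt1, Ccs, Slc31a1 and Mt2.

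Among the 8522 tested genes whose mean log2 CPM was 3 or more, the level of Mt2 had the 6th highest Pearson correlation with that of Mt1 over the 6 libraries (r = 0.995). The 5 genes above it were Fbxw9 (0.999), an F-box protein gene, Pkm (0.998), which encodes pyruvate kinase, Ccng1 (0.996), which encodes cyclin G1, Aen (0.995), which encodes an apoptosis-enhancing nuclease, and Gpatch2l (0.995). Their log2 fold changes were 1.38 for Fbxw9, 0.44 for Pkm, 1.15 for Ccng1, 1.19 for Aen and 0.30 for Gpatch2l. These correlations describe 6 libraries that come from 2 groups.

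Zinc carriers outside the members form a pair of families. For these and the lists below, the shares over all tested genes with TMM were 24.5% that rose and 22.8% that fell. With library totals 8508 of all 15662 tested genes rose and 1375 fell, with a median log2 fold change of 0.48. Of 9 further zinc exporters of the Slc30 family, 6 were tested, of which 0 rose and 4 fell, with a median log2 fold change of -0.33. Slc30a2, an exporter of vesicles and lysosomes, had 6.23, 5.90 and 6.50 CPM in cisplatin kidneys and 38.4, 36.8 and 37.5 CPM in control kidneys. Its log2 fold change of -2.60 (SE 0.0922, edgeR adjusted p = 2.4e-08) was larger in size than that of any member. Slc30a5 and Slc30a6, which load zinc into the secretory pathway, fell, at -0.63 and -0.40 on the log2 scale (edgeR adjusted p = 4.8e-04 and 0.0178). With library totals the median of the exporters was 0.09, with 2 that rose and 1, Slc30a2, that fell, at -2.17.

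Of 14 zinc importers of the Slc39 family, 12 were tested, of which 2 rose and 4 fell (median log2 fold change -0.25). Slc39a6, a plasma membrane zinc importer, rose to 7.54 ± 0.636 CPM in cisplatin kidneys, against 4.22 ± 0.616 CPM in control kidneys, a log2 fold change of 0.83 (edgeR adjusted p = 7.8e-04). Slc39a1, a plasma membrane importer, rose by 0.24 on the log2 scale (edgeR adjusted p = 0.0382), and did not pass with DESeq2 size factors (edgeR adjusted p = 0.0679), under which 1 importer rose and 5 fell. Slc39a8, which carries zinc, manganese and cadmium, fell to 28.2 ± 2.40 CPM in cisplatin kidneys, against 46.3 ± 3.90 CPM in control kidneys, with a log2 fold change of -0.72 (edgeR adjusted p = 1.6e-04). Slc39a11 and Slc39a5 fell, at -0.69 and -0.47 on the log2 scale (edgeR adjusted p = 6.4e-04 and 0.00250). With library totals 4 importers rose and 1 fell, and the median was 0.17, below the 0.48 of all tested genes.

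The copper enzymes moved in both directions. Of 13 listed, 11 were tested, of which 6 rose and 3 fell (median log2 fold change 0.52, and 0.95 with library totals). Sod1, the enzyme that CCS loads, had 142, 178 and 183 CPM in cisplatin kidneys and 349, 380 and 359 CPM in control kidneys. It fell, like Ccs, with a log2 fold change of -1.11 (SE 0.112, edgeR adjusted p = 2.0e-05). Sod3, the extracellular superoxide dismutase, and mt-Co1, a copper-binding subunit of cytochrome c oxidase, fell, at -0.62 and -0.78 on the log2 scale (edgeR adjusted p = 8.3e-04 and 0.00183). With library totals Sod3 did not pass (-0.19, edgeR adjusted p = 0.231), and 7 copper enzymes rose and 2 fell. Ceruloplasmin (Cp), the copper-carrying ferroxidase of plasma, moved the other way, with 266, 270 and 290 CPM in cisplatin kidneys and 42.8, 34.9 and 46.1 CPM in control kidneys, a log2 fold change of 2.74 (SE 0.117, edgeR adjusted p = 6.3e-08). Aoc1, a secreted diamine oxidase, rose by 3.39 and Lox, which crosslinks collagen, by 2.53 on the log2 scale (edgeR adjusted p = 4.4e-07 and 3.3e-05).

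Of 9 genes that deliver copper to cytochrome c oxidase, 0 rose and 5 fell (median log2 fold change -0.51). Among those that fell, Cox19 had a log2 fold change of -0.60, Slc25a3, the mitochondrial carrier of phosphate and copper, one of -0.51 and Sco1 one of -0.59 (edgeR adjusted p = 0.00103, 0.00190 and 0.00399). With library totals 0 of the 9 fell and 1 rose. Of 9 genes of copper reduction and handling, 4 rose and 3 fell, and with library totals 4 rose and 2 fell. The metalloreductases Steap1, Steap4 and Steap2 rose, by 2.15, 1.66 and 0.66 on the log2 scale (edgeR adjusted p = 9.8e-06, 3.9e-05 and 2.2e-04). Cutal, Slc11a2, the divalent metal transporter DMT1, and Cutc fell, at -0.80, -0.60 and -0.81 (edgeR adjusted p = 7.4e-05, 3.0e-04 and 4.2e-04).

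Copper-dependent cell death, or cuproptosis, acts through lipoylated mitochondrial enzymes. Of 13 genes of protein lipoylation and its targets, 12 were tested, of which 0 rose and 11 fell, with a median log2 fold change of -0.78. Dld, the shared dehydrogenase subunit, fell to 105 ± 5.16 CPM in cisplatin kidneys, against 213 ± 3.33 CPM in control kidneys, with a log2 fold change of -1.03 (SE 0.0849, edgeR adjusted p = 5.5e-06). Dlst and Dbt, the lipoylated subunits of the 2-oxoglutarate and branched-chain ketoacid dehydrogenases, fell, at -0.88 and -0.92 on the log2 scale (edgeR adjusted p = 1.7e-05 and 2.8e-05). With library totals 8 of the 12 fell and 1 rose, and the median was -0.36.

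Cisplatin also enters and leaves tubule cells by carriers that do not move copper. Of 5 such genes 4 were tested, of which 1 rose and 3 fell, under all 4 scalings. Slc22a2, which encodes OCT2, the main basolateral route of cisplatin into the tubule, had 41.8, 43.6 and 51.8 CPM in cisplatin kidneys and 237, 236 and 248 CPM in control kidneys. It fell, with a log2 fold change of -2.40 (SE 0.104, edgeR adjusted p = 6.5e-08), a larger size than that of the copper importer Slc31a1. Slc47a1, the apical exporter MATE1, fell, at -1.10 on the log2 scale (edgeR adjusted p = 1.5e-05). Abcc2, the apical conjugate pump MRP2, rose by 0.30 (edgeR adjusted p = 0.0241).

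Lists for the other known inducers of metallothioneins also moved. Of 7 glucocorticoid-responsive genes 5 rose and 0 fell (median log2 fold change 1.0, and 1.42 with library totals). Per1, a clock gene, rose by 1.96, Tsc22d3, the glucocorticoid-induced leucine zipper, by 1.0 and Sgk1, a kinase of sodium transport, by 1.06 on the log2 scale (edgeR adjusted p = 2.0e-05, 8.5e-05 and 2.8e-04). Of 11 acute phase and interleukin-6 target genes 7 were tested, and 7 rose (median log2 fold change 1.87), where 24.5% of all tested genes rose. Il6 itself and Saa1, Saa2 and Saa3 were too low to test, with at most 4 counts in any library. Lcn2, the injury marker lipocalin-2, reached 48.8 ± 9.96 CPM in cisplatin kidneys and 0.851 ± 0.402 CPM in control kidneys (SD, n = 3 each). Socs3, the feedback inhibitor of STAT3, rose by 2.86 and Fgg, a fibrinogen chain, by 1.87 on the log2 scale (edgeR adjusted p = 1.0e-06 and 1.5e-06). The part of these inducers in the levels of Mt1 and Mt2 was not tested.

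**Figure D5:**
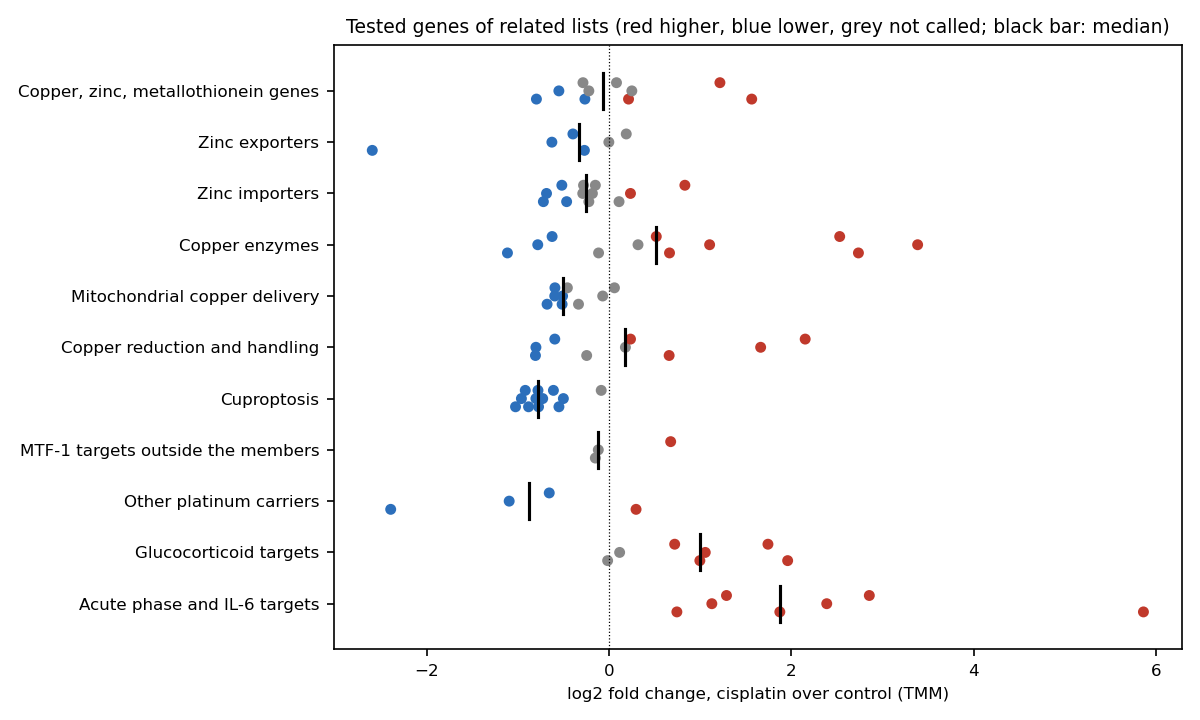
Log2 fold change, cisplatin over control under TMM scaling, of every tested gene in the 10 member genes and in 10 related lists. Points are genes (red rose, blue fell, grey did not pass) and the black bar is the median of the list. The medians run from -0.88 for other platinum carriers to 1.87 for acute phase and interleukin-6 targets, and the member genes lie on both sides of 0.

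Markers of kidney cell types moved with the groups. Of 12 proximal tubule markers 11 fell and 0 rose (8 fell and 1 rose with library totals), and their summed level was 4162 to 4497 CPM in cisplatin kidneys and 31591 to 32040 CPM in control kidneys. Kap, an androgen-responsive gene, made up most of this sum in control kidneys, at 280.2 ± 125 CPM in cisplatin kidneys and 21207 ± 440.5 CPM in control kidneys (SD, n = 3 each). The megalin gene Lrp2 stood at 1526 ± 168 CPM in cisplatin kidneys and 4081 ± 297 CPM in control kidneys (SD, n = 3 each), and Aqp1, also a marker of the thin limb, was the tested marker that did not pass, at a log2 fold change of -0.04. Of 6 macrophage markers 5 rose, with sums of 211 to 250.1 CPM in cisplatin kidneys and 72.6 to 88.6 CPM in control kidneys, and of 6 fibroblast markers 4 rose, with sums of 307 to 533 CPM in cisplatin kidneys and 151 to 193 CPM in control kidneys. Of 6 collecting duct markers 4 rose, of 6 loop and distal tubule markers 2 rose and 3 fell, of 5 endothelium markers 2 fell, and of 4 podocyte markers 0 passed. Of 3 tested lymphocyte markers 2 rose, both at low counts. Cd3g had 25, 24 and 13 counts in cisplatin libraries and 7, 9 and 4 in control libraries. Cd8a had 37, 30 and 25 against 16, 10 and 6. Both passed the count filter only through the cisplatin libraries, so that share is partly set by the filter. With library totals 2 endothelium markers rose and 0 fell, 3 podocyte markers rose, and 2 loop and distal tubule markers rose and 1 fell. Among markers of tissue outside the kidney, the adrenal markers summed to at most 0.611 CPM in any library. Of 5 liver markers 2 were tested and fell, with sums of 20.97 to 26.8 CPM in cisplatin kidneys and 232 to 274 CPM in control kidneys, nearly all of it Ttr, while Alb averaged 1.34 ± 0.632 CPM in cisplatin kidneys and 3.84 ± 0.439 CPM in control kidneys (SD, n = 3 each). The liver markers Apoa1, Cps1 and Ahsg were too low to test, with at most 15, 3 and 1 counts in any library. The fat markers summed to 11.1 to 17.6 CPM in cisplatin kidneys and 26.8 to 34.1 CPM in control kidneys, and 1 of 3 tested, Fabp4, fell. The part of such tissue in the results was not tested.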

How the data were processed

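Total RNA of kidneys from 3 cisplatin and 3 control mice was sequenced as read pairs, 1 library per mouse. The authors trimmed adapters with Cutadapt, aligned to mm39 with STAR and deposited raw gene counts per library, which are not normalized. The annotation and STAR's options were not given in the sources used here. STAR counts only pairs that map to 1 place. The counts of the transcript strand were used, with 96.7% to 97.2% of the stranded counts, and unmapped, multimapped and unassigned pairs were left out. Of 56691 gene IDs, 56017 matched GENCODE vM39, which gave symbols, coordinates and exon lengths.

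Counts were tested with edgeR 4.0.16 (filterByExpr with minimum count 10 and minimum total 15, TMM, quasi-likelihood F test, Benjamini-Hochberg at 0.05) in R 4.3.3. Log2 CPM used a prior count of 2. The fit was tested on simulated data. Alternatives changed the tool (DESeq2 1.42.0 or limma-voom of limma 3.58.1), the scaling (3 others), the filter (none, or a minimum of 10 counts in each of the libraries), the strand (ignored), the genes (mitochondrial and the 20 highest removed), the model (replicate number as block), the threshold (0.01) or the libraries (each left out once). Those for the count ratios were added after seeing the data.

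The members and lists were chosen with earlier results of these data known. The text names all members and, per other list and direction, at most the 3 called genes with the smallest adjusted p, every gene of a list of at most 3, and the 5 genes most like Mt1. Other named genes were chosen after their values were seen. Some list genes are counted but not reported here by name. Promoter windows come from RefSeq.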

Additional observations from a re-analysis of the deposited data

How the results depend on the processing

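Mt1, Mt2 and Slc31a1 kept their direction and call under all 17 alternatives. The count of called genes was 5135 to 9883 over the alternatives, against 7419. With library totals 8508 genes rose and 1375 fell, and 5 members rose and 1 fell, because the median of all genes moved to 0.48. The share of calls that were higher was 51.8% with TMM, 48.7% with DESeq2 size factors, 62.3% with upper-quartile factors (4774 rose and 2890 fell) and 86.1% with library totals. Slc30a1 changed sign with library totals, at 0.16, where it was not called (edgeR adjusted p = 0.204). It also lost its call with upper-quartile factors (log2 fold change -0.18, edgeR adjusted p = 0.111) and at an adjusted p under 0.01. Mtf1 (0.22) and Atp7b (0.14) also stood above 0 with library totals, neither called. Atox1 was called there, at 0.50 (adjusted p = 0.00230, edgeR), and stood at -0.05 to 0.22 on leaving out single libraries. Leaving out each library gave 2 members that rose and 2 to 4 that fell, and 5902 to 8225 called genes. Replicate numbers are shared between the groups but no label ties them to a litter or day. Deviations of same-numbered samples correlated at 0.133, 0.142 and 0.0997, each sample correlating best with its own number, which is a hint from the data only. With the replicate block 7883 genes were called, 4087 higher and 3796 lower, with 2 members higher and 3 lower, and Atp7a had an adjusted p of 0.0566 by edgeR. The strand-ignoring value of the Mt1 to Mt2 ratio (-0.19) rests on few Mt2 counts, since pairs in the overlap with Gm45774 cannot be assigned. Limits are the 3 mice per group, 1 time point, whole tissue, and the 55 to 113 counts behind Atp7b.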
